A study of Mus musculus with 12 samples.

Results

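Neuron-induced FoxA1 regulatory T cells were set against encephalitogenic T cells on 6 of the 12 Affymetrix Mouse430_2 arrays of a study of T cells. All mice were C57BL/10.RIII, which develop experimental autoimmune encephalomyelitis (EAE), a disease that models multiple sclerosis. The 3 arrays titled as neuron induced FoxA1Treg (nFoxA1Treg) hold cells labelled CD4hi and PD-L1hi, and their cell type field calls the same cells natural. The 3 arrays titled as Encephalitogenic Tcells (EncT) hold cells labelled CD4+. The labels used here give no age, sex, culture time, antigen or treatment for either group, and they do not say whether the replicates of a group came from separate animals or cultures. P-values therefore measure the spread between these samples, which may be technical. Members of the comparison were chosen by title alone, and the other 6 arrays of the study (3 Treg and 3 of FoxA1Treg induced with IFN-beta) stayed out of the normalization, the filter and the fit.

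Encephalitogenic T cells are CD4 T cells that recognise myelin antigens, enter the central nervous system and start the inflammation of EAE. Neurons in contact with such cells can turn some of them into regulatory cells that depend on the forkhead transcription factor FoxA1 rather than on Foxp3 and that carry the inhibitory ligand PD-L1. Activated T cells draw on a programme run by the transcription factor ATF4, which answers a shortage of amino acids by raising amino acid transporters, the enzymes that make serine, glycine and asparagine, and the synthetases that charge tRNA. Its targets carry a composite element of the letters TGATGNAA.

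Levels are given as log2(value + 16) of the deposited probe set value after quantile normalization over these 6 arrays, and a change is the nFoxA1Treg mean minus the EncT mean on that scale. The offset of 16 keeps noise at the dim end small, and it understates the change of dim genes. A gene is called here when limma gave it an adjusted p under 0.05. Of 12477 genes tested, 1243 were called (9.96%): 499 were higher in nFoxA1Treg (4.0%) and 744 lower (5.96%). The median change over all genes was -0.0039. Most called changes were small, since 8 genes were at least 2-fold higher and 38 at least 2-fold lower. In each of the 1243 called genes the 3 values of one group lay outside the range of the other. Such non-overlap held for 15.9% of all tested genes on the higher side and 17.9% on the lower side.

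**Figure D1:**
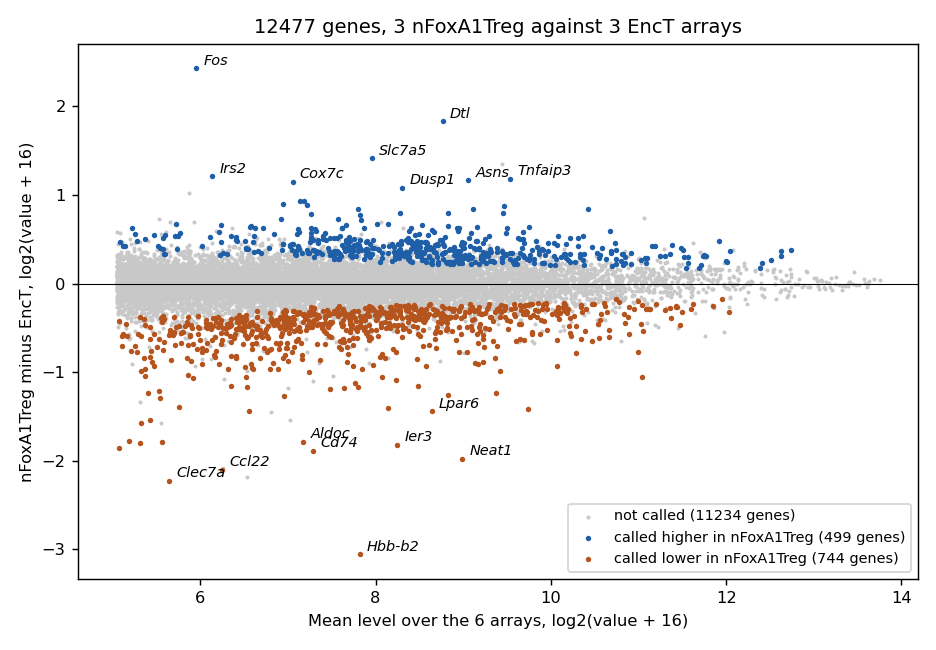
Each point is 1 of 12477 genes, with its mean level over the 6 arrays on the x axis and the difference nFoxA1Treg minus EncT on the y axis, both on the log2(value + 16) scale. Fos lies highest (2.43) and Hbb-b2 lowest (-3.06), and most of the 499 genes called higher and 744 called lower lie within 1 log2 unit of 0.

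The groups differed in how tightly their arrays held together. Over the tested genes the mean correlation of an array with its own group was 0.994 to 0.996 in nFoxA1Treg and 0.988 to 0.992 in EncT, across genes, which are not independent replicates. EncT replicate 2 correlated with the nFoxA1Treg arrays as closely (0.989) as with its own group (0.989). Leaving out nFoxA1Treg replicate 1 or replicate 2 reduced the calls to 145 and 125, while leaving out EncT replicate 2 raised them to 2159 and leaving out EncT replicate 3 reduced them to 356. Without nFoxA1Treg replicate 3 the calls were 509. In each of these fits at least 1238 of the main calls that could be tested kept their sign. Of 152 named genes that were called, 92 lost the call without nFoxA1Treg replicate 1, 99 without replicate 2, 47 without replicate 3, 16 without EncT replicate 1 and 56 without EncT replicate 3, and 49 kept it in every alternative fit that measured them. With the mean of a gene's probe sets in place of the brightest 1, 23 of the 152 lost the call. Among them are Abcg1 (-0.14), Cdkn1a (-0.17), Jund (-0.048), Parp14 (-0.29), Runx1 (-0.060), Slc38a2 (-0.054) and Tgfbr2 (-0.15), all called lower below on the brightest probe set. On that mean Bcat1 (0.55), Cflar (-0.26), Maf (-0.37) and Neat1 (-0.89) kept the call with a change over 1.5 times smaller.

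The labels were checked first. The T cell markers summed to linear values of 2.50e+04 to 2.71e+04 in EncT and 2.38e+04 to 2.45e+04 in nFoxA1Treg, and all 12 markers on the array passed the filter on dim probe sets. Cd4 read 10.60, 10.61 and 10.63 in EncT and 10.52, 10.52 and 10.41 in nFoxA1Treg, so the cells labelled CD4hi had no higher Cd4 transcript (change -0.13 ± 0.05 SE, adjusted p = 0.149). Cd274, which encodes PD-L1, read 7.92, 7.64 and 7.84 in EncT against 7.64, 7.56 and 7.41 in nFoxA1Treg. Its change of -0.26 (95% interval -0.48 to -0.04, adjusted p = 0.117) did not pass the test and lay on the opposite side from the PD-L1hi label. Both are transcript levels, whereas such labels may refer to surface protein, which the arrays do not measure, so they do not test the labels. In RNA from a cell population, fewer cells of a type and less RNA per cell cannot be told apart.

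Foxa1 itself is measured by 1 probe set that lay under the filter on every array. Its deposited linear values were 0.0054, 0.0027 and 0.81 in EncT and 4.05, 5.25 and 5.94 in nFoxA1Treg, and the 3 Treg arrays read 7.52, 2.12 and 4.89. All of these lie below the offset of 16. In the fit without the filter Foxa1 was higher in nFoxA1Treg by 0.37 ± 0.09 (SE, adjusted p = 0.0433), with no overlap between the groups, at a level where a detected transcript and background cannot be told apart. Foxp3, the master factor of classical regulatory T cells, was as dim, with linear values of 7.85, 5.6 and 0.73 in EncT and 12.2, 4.86 and 3.58 in nFoxA1Treg, and the fit without the filter gave 0.14 ± 0.17 (adjusted p = 0.73).

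Among the regulatory and effector genes named for the study, Ctla4 rose. This inhibitory receptor competes with CD28 for its ligands. It read 10.05, 9.81 and 10.15 in EncT and 10.90, 10.76 and 10.87 in nFoxA1Treg, a 1.79-fold rise (0.84 ± 0.09 SE, adjusted p = 0.00182), and it kept its call in every alternative fit run. The signals of the other named genes overlapped or differed little. Tgfb1 (0.03 ± 0.12), Cd47 (-0.04 ± 0.07), Pdcd1 (0.09 ± 0.19), Il2ra (-0.04 ± 0.17) and Ifng (-0.12 ± 0.10) did not pass the test. Il10 spread from 5.25 to 6.42 in EncT and from 5.85 to 7.23 in nFoxA1Treg (0.46 ± 0.38), and Il17a from 6.49 to 8.01 and from 6.67 to 8.0, so for these cytokines the arrays of one group differed more than the group means. The interval of the Il17a change ran from -0.94 to 1.01.

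Before the values of the amino acid programme, the promoter stretches that hold the ATF4 composite element in its called members are shown, because these genes rose together. RefSeq windows (GRCm38.p6, 250 bases before to 50 after each gene start) were searched on both strands for TGATGNAA. The stretches are written 5′ to 3′ on the strand that holds the match, which is in capitals, and none of them runs past the gene start. Asns lies on the minus strand at chr6:7693210-7693250, Chac1 on the plus strand at chr2:119351031-119351074, Aars on the plus strand at chr8:111033712-111033755, Gars on the plus strand at chr6:55037953-55037996 and Tars on the minus strand at chr15:11399659-11399691. The Asns match is on the gene's own strand and the other 4 are on the opposite strand.
Asns: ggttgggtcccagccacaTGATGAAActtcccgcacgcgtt
Chac1: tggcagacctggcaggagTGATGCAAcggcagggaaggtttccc
Aars: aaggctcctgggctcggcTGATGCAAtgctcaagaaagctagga
Gars: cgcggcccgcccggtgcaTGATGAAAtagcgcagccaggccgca
Tars: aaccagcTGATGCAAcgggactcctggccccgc

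The element was found in 5 of 12 cytosolic tRNA synthetase genes with a window (41.7%): Aars, Gars, Tars, Iars and Yars, and each of these 5 was called higher. It was found in 2 of 12 synthesis enzymes (Asns and Got1), in 4 of 16 regulators (Atf3, Chac1, Trib3 and Vldlr) and in none of the 6 transporters with a window. Among all 10081 tested genes with a window 2.75% held it, and among all 27025 RefSeq genes with a window 4.51%. In Iars, Yars and Trib3 the match ends after the gene start and is not printed. A match is a description of these letters and shows no binding.

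Enzymes that make amino acids and 1-carbon units were higher in nFoxA1Treg. Of 13 measured members 8 rose (61.5% against 4.0% of all genes), none fell and all 13 changes were positive, with a median of 0.407. Asns, asparagine synthetase, read 8.27, 8.48 and 8.68 in EncT and 9.63, 9.69 and 9.61 in nFoxA1Treg. The nFoxA1Treg arrays lay within 0.1 of each other and above every EncT array, and the change was 1.17 ± 0.10 (SE, 2.25-fold, adjusted p = 8.9e-04). Shmt2, the mitochondrial enzyme that turns serine into glycine, went from 8.57, 8.80 and 8.69 to 9.52, 9.51 and 9.56 (1.80-fold, adjusted p = 8.9e-04), with 4 of 4 probe sets called higher. The serine synthesis genes Phgdh (0.54 ± 0.06) and Psat1 (0.52 ± 0.07) rose too, with 4 of 4 and 2 of 2 probe sets called, while Psph, the last step of that pathway, showed 0.16 ± 0.07 and did not pass (adjusted p = 0.155). Mthfd2, which passes the carbon unit on, rose by 0.32 ± 0.05. Bcat1, the cytosolic transaminase of branched-chain amino acids and a large rise of the comparison, read 6.48, 6.91 and 6.93 in EncT and 7.64, 7.57 and 7.76 in nFoxA1Treg (1.85-fold, adjusted p = 0.00827). The count of 8 fell to 4 without nFoxA1Treg replicate 1 and to 4 without replicate 2.

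Of 9 measured amino acid transporters of the programme, 3 rose (33.3% against 4.0% of all genes) and 1 fell (11.1% against 5.96%). The median change of the 9 was 0.161. Slc7a5, the light chain of the large neutral amino acid exchanger, read 6.98, 7.5 and 7.28 in EncT and 8.77, 8.63 and 8.60 in nFoxA1Treg, a 2.66-fold rise (1.41 ± 0.13 SE, adjusted p = 0.00103). Slc3a2, the heavy chain that carries Slc7a5 to the surface, rose 1.73-fold, from 8.93, 9.10 and 9.14 to 9.85, 9.81 and 9.89. Slc7a1, the transporter of arginine and lysine, rose 1.56-fold (adjusted p = 0.0166). Slc38a2, a glutamine and alanine importer, fell instead, from 9.69, 9.74 and 9.68 to 9.33, 9.23 and 9.30 (-0.41 ± 0.06 SE, adjusted p = 0.00609), although 1 of its 3 probe sets was called. Without nFoxA1Treg replicate 1 or replicate 2 the number that rose was 2, and without replicate 2 none fell. The cystine carrier Slc7a11 lay under the filter, between 4.67 and 4.94 on all 6 arrays.

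The regulators of the same programme moved both ways. Atf4 rose from 9.08, 9.23 and 9.24 to 9.84, 9.79 and 9.81 (0.63 ± 0.06 SE, adjusted p = 0.00159). Ppp1r15a, the phosphatase subunit that reverses the stress-induced block of translation, rose from 6.59, 6.53 and 6.38 to 7.45, 7.38 and 7.36 (1.86-fold, adjusted p = 0.00143). Chac1, a glutathione-degrading enzyme induced by ATF4, rose by 0.57 ± 0.11 (adjusted p = 0.0191) and was dim (5.31 to 5.64 in EncT and 5.99 to 6.18 in nFoxA1Treg). Ddit4, an inhibitor of mTORC1 that hypoxia also induces, fell from 11.96, 11.43 and 11.30 to 10.44, 10.51 and 10.57 (2.08-fold, adjusted p = 0.00692), and Cebpg, a partner of ATF4, fell by 0.35 (adjusted p = 0.0254). Other textbook targets did not pass: Ddit3, which encodes CHOP, changed by -0.03 ± 0.11, Sesn2 by -0.04 ± 0.13, Trib3 by 0.58 ± 0.16 (adjusted p = 0.0517) and Atf3 by 0.35 ± 0.11. In all, 3 of 17 regulators rose (17.6% against 4.0% of all genes) and 2 fell (11.8% against 5.96%), with a median of 0.017. Leaving out any 1 nFoxA1Treg array left 2 that rose and 1 that fell. Without EncT replicate 3, 1 fell.

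The cytosolic tRNA synthetases, which load each amino acid on its tRNA, were higher as a group. Of 19 measured, 11 rose (57.9% against 4.0% of all genes), and 19 of 19 changes were positive, with a median of 0.355. Cars, for cysteine, read 6.43, 6.90 and 6.82 in EncT and 7.55, 7.72 and 7.67 in nFoxA1Treg (1.90-fold, adjusted p = 0.00618). Nars, for asparagine, read 9.37, 9.43 and 9.51 against 10.07, 10.11 and 10.04, a change of 0.64 ± 0.06 (SE, adjusted p = 0.00107). Iars, for isoleucine, went from 9.14, 9.19 and 9.28 to 9.81, 9.77 and 9.76 (1.49-fold, adjusted p = 0.00166). Aars, for alanine, went from 8.50, 8.76 and 8.66 to 9.29, 9.30 and 9.21 (0.62 ± 0.08 SE). Tars and Gars, whose promoter stretches are printed above, rose by 0.65 and 0.54. Leaving out nFoxA1Treg replicate 1 left 7 of the 19 called higher, and leaving out replicate 2 left 6.

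**Figure D2:**
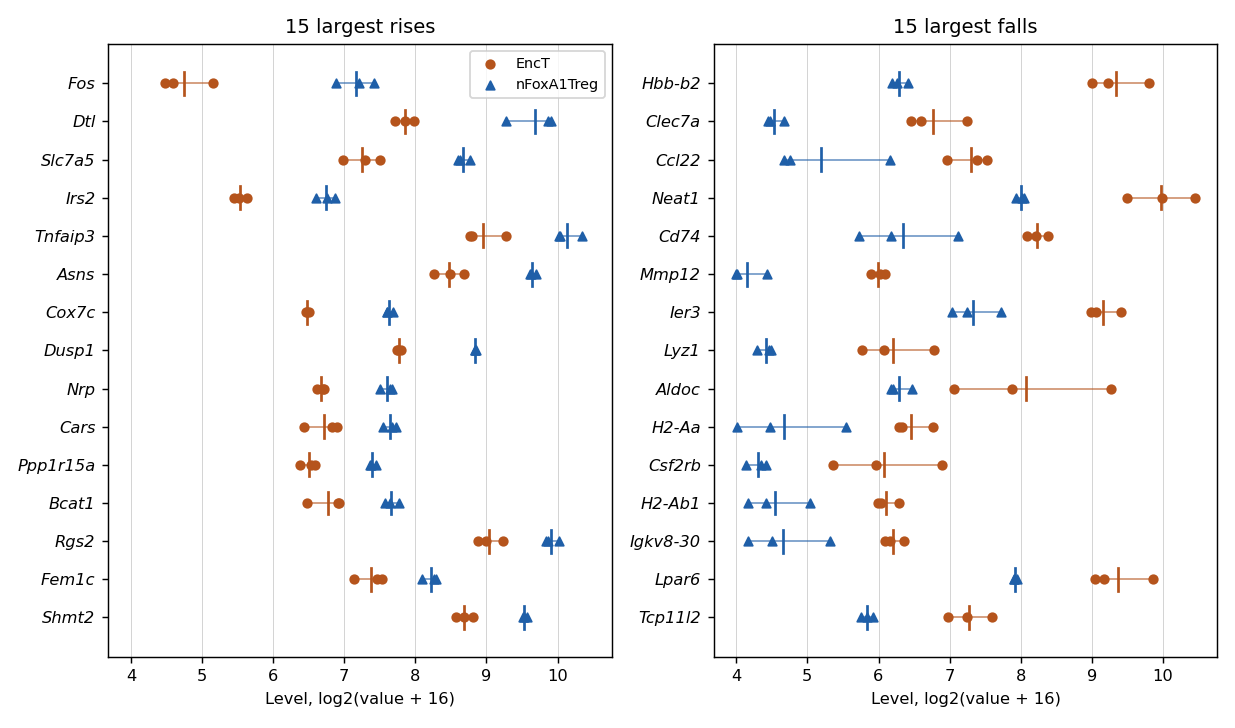
The 15 largest rises (left) and 15 largest falls (right) among called genes, with each array as a point, group means as vertical ticks and the range as a line, on the log2(value + 16) scale. For all 30 genes the groups do not overlap, by the rule that chose them; the spread within EncT is wide for Aldoc (7.06 to 9.27) and within nFoxA1Treg for Cd74 (5.73 to 7.12) and H2-Aa (4.0 to 5.54).

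Protein folding genes of the endoplasmic reticulum and mitochondria moved less. Of 25 genes of the unfolded protein response, 4 rose (16% against 4.0% of all genes) and 1 fell (4% against 5.96%). The chaperone genes Hspa5 (0.43 ± 0.05, adjusted p = 0.00456), Pdia6 (0.39 ± 0.06) and Pdia3 (0.29 ± 0.07) were among those that rose, whereas Pdia4 (-0.16 ± 0.11) and the transcription factor gene Xbp1 (0.03 ± 0.06) did not pass. Ern1, the sensor IRE1 that splices Xbp1 mRNA, fell on its brightest probe set from 8.42, 8.12 and 8.16 to 7.02, 7.01 and 7.14 (-1.18 ± 0.09 SE, adjusted p = 8.9e-04). Its 4 probe sets, the brightest included, disagreed, with 1 called higher and 1 called lower. The mean over the 4 changed by -0.10 (adjusted p = 0.426). The mitochondrial chaperones Hspa9 (0.46) and Hspd1 (0.28) rose. The number of unfolded protein response genes that rose was 1 without nFoxA1Treg replicate 1 or 2, 2 without nFoxA1Treg replicate 3 or EncT replicate 3, and 7 without EncT replicate 2.

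Ribosome assembly and nucleotide synthesis rose together with the amino acid genes. Of 26 nucleolar and ribosome assembly factors, 14 rose (53.8% against 4.0% of all genes) and none fell, with a median of 0.338. Nolc1, a nucleolar scaffold, read 7.90, 8.16 and 8.18 in EncT and 8.69, 8.63 and 8.69 in nFoxA1Treg (1.5-fold, adjusted p = 0.00827). Nop56 and Nop58, core proteins of the particles that methylate ribosomal RNA, rose by 0.46 ± 0.06 and 0.55 ± 0.08. Of 22 nucleotide synthesis genes, 12 rose (54.5%), with a median of 0.351. Gart, which catalyses several steps of purine synthesis, went from 8.45, 8.77 and 8.72 to 9.27, 9.28 and 9.18 (1.51-fold, adjusted p = 0.00893). Rrm1, the large subunit of ribonucleotide reductase, rose by 0.46 ± 0.07 and Tyms, thymidylate synthase, by 0.49 ± 0.08. These counts leaned on single arrays: without nFoxA1Treg replicate 1 they were 2 and 0, without replicate 2 they were 3 and 0, and without replicate 3 they were 8 and 6. Without EncT replicate 3 they were 8 and 5.

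Myc, the factor that drives both sets of genes in activated T cells, did not rise with them. It read 8.47, 8.70 and 8.69 in EncT and 8.26, 8.24 and 8.27 in nFoxA1Treg, a fall of 0.36 (SE 0.08, adjusted p = 0.0239) that was lost with the replicate block, without EncT replicate 3 and without any single nFoxA1Treg array. Mxd4, an antagonist of MYC, fell from 9.89, 9.40 and 9.47 to 8.71, 8.68 and 8.67 (1.86-fold, adjusted p = 0.00566). Srm, the spermidine synthase gene, rose by 0.44 ± 0.10. Of the 10 genes of this list 1 rose (10% against 4.0% of all genes) and 2 fell (20% against 5.96%). The number that fell was 4 without EncT replicate 2. Without EncT replicate 3 or any 1 nFoxA1Treg array, 1 fell and none rose.

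**Figure D3:**
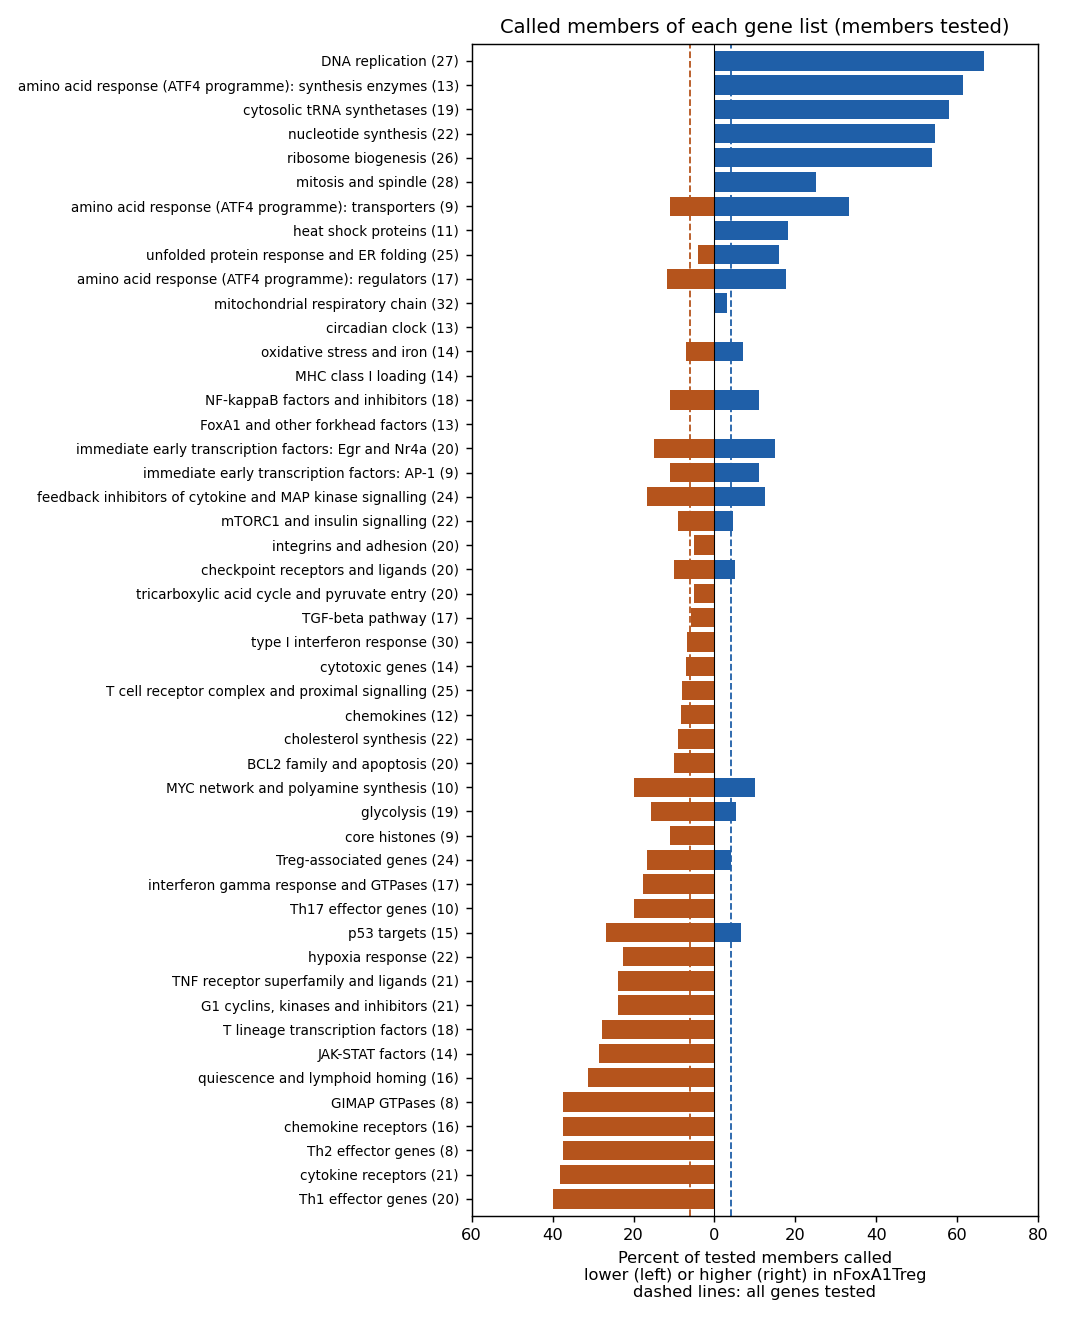
For each of 48 gene lists, the bar shows the percent of its tested members called higher (blue, right) or lower (orange, left) in nFoxA1Treg, with the number tested in brackets; the dashed lines mark 4.0% and 5.96% over all genes tested. DNA replication (66.7% higher), the synthesis enzymes (61.5%) and the tRNA synthetases (57.9%) stand at the top, and the Th1 effector genes (40% lower) at the bottom.

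DNA replication genes were higher in nFoxA1Treg. Of 27 measured, 18 rose (66.7% against 4.0% of all genes), and all 27 changes were positive, with a median of 0.405. The groups did not overlap in any of the 27, which held on the higher side for 15.9% of all genes. Pola1, the catalytic subunit of DNA polymerase alpha, read 8.2, 8.23 and 8.21 in EncT and 8.82, 8.77 and 8.73 in nFoxA1Treg (0.55 ± 0.06 SE, adjusted p = 0.00227). Mcm5, a subunit of the replicative helicase, went from 11.13, 11.44 and 11.28 to 11.68, 11.73 and 11.66 (1.32-fold, adjusted p = 0.0172), and Pcna, the sliding clamp, from 12.45 to 12.64 across EncT to 12.82 or more on each nFoxA1Treg array (1.30-fold). Pold1 rose 1.5-fold and Orc6 1.35-fold. Dtl, the adaptor by which a ubiquitin ligase destroys Cdt1 on replicating DNA, showed the next largest rise after Fos on its brightest probe set. That probe set read 7.71, 7.98 and 7.86 in EncT against 9.91, 9.86 and 9.27 in nFoxA1Treg (3.56-fold, adjusted p = 8.9e-04), and 6 of its 6 probe sets were called higher.

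The number of replication genes called depended on the arrays. Without nFoxA1Treg replicate 1 it was 1, without replicate 2 it was 1 and without replicate 3 it was 7. Without EncT replicate 3 it was 4 and without EncT replicate 2 it was 27. The median change stayed at 0.414 without nFoxA1Treg replicate 1 and 0.389 without replicate 2. Each of these fits chose the brightest probe set of a gene anew. Dtl lost its call without nFoxA1Treg replicate 1 (0.60) or 2 (0.56), and its change was 0.56 without replicate 3 and 0.58 with all 12 arrays in the fit. The array values printed above for Dtl differ between the groups by more than that, so these fits used another of its probe sets. Its change of 1.83 on the probe set above was 1.24 as the mean of its probe sets. Pola1 kept its call in every alternative fit run.

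The promoters of these genes were searched for the E2F elements TTTGGCGC and TTTCCCGC, the sites of the factors that open S phase, and the stretches below show them in called members. Of 23 replication genes with a window 9 held a match (39.1%), against 3.42% of tested genes with a window. Of 20 nucleotide synthesis genes with a window 1 did (Ppat). The lines are written 5′ to 3′ on the strand with the match. Mcm5 lies on the plus strand at chr8:75109342-75109385, Mcm6 on the minus strand at chr1:128359790-128359833, Mcm7 on the minus strand at chr5:138172023-138172066 and Pola1 on the minus strand at chrX:93632268-93632311. The Mcm6 match is on the gene's own strand and the other 3 are on the opposite strand.
Mcm5: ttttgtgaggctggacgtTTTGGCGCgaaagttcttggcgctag
Mcm6: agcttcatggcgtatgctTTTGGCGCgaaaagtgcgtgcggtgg
Mcm7: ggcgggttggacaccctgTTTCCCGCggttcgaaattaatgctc
Pola1: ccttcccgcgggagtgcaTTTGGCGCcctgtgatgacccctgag

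Genes of mitosis were positive in 28 of 28 with a median of 0.285, and 7 were called higher (25% against 4.0% of all genes). Bub1, a spindle checkpoint kinase, went from 9.33, 9.31 and 9.24 to 9.56, 9.54 and 9.66 (0.29 ± 0.06 SE, adjusted p = 0.0218). Cdca8 (0.33), Top2a (0.32) and Ncapg (0.28) rose by like amounts. Mki67, the usual marker of cycling cells, was high in both groups (11.51, 11.03 and 11.61 against 11.58, 11.59 and 11.65) and Cdk1 changed by 0.17 ± 0.08; neither passed. Leaving out any 1 nFoxA1Treg array or EncT replicate 3 left none of the mitosis genes called, and leaving out EncT replicate 2 left 19.

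Of 21 cyclins, kinases and inhibitors of G1, 5 were called lower (23.8% against 5.96% of all genes) and none was called higher (against 4.0%). The other 16 were not called. Of the 21 changes 11 were positive, with a median of 0.0030. Ccng2, a cyclin of resting and arrested cells, fell from 10.84, 10.43 and 10.34 to 9.54, 9.55 and 9.73 (1.90-fold, adjusted p = 0.0058). Cdkn1b, the inhibitor p27, fell by 0.63 (SE 0.10) and Cdkn1a, the inhibitor p21, by 0.38 (SE 0.10, adjusted p = 0.0449). The D cyclins Ccnd2 and Ccnd3 fell by 0.29 and 0.47. Outside that list the antiproliferative genes Btg2 and Tob1 fell. Btg2 read 10.87, 10.06 and 10.41 in EncT and 9.11, 9.09 and 8.88 in nFoxA1Treg (2.67-fold, adjusted p = 0.00456), and Tob1 was 1.53-fold lower. Without nFoxA1Treg replicate 1 the G1 count was 2, without replicate 2 it was 1, and without replicate 3, EncT replicate 1 or EncT replicate 3 it was 3. Without EncT replicate 2, 3 genes of the list were called higher, and without EncT replicate 1 it was 1.

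**Figure D4:**
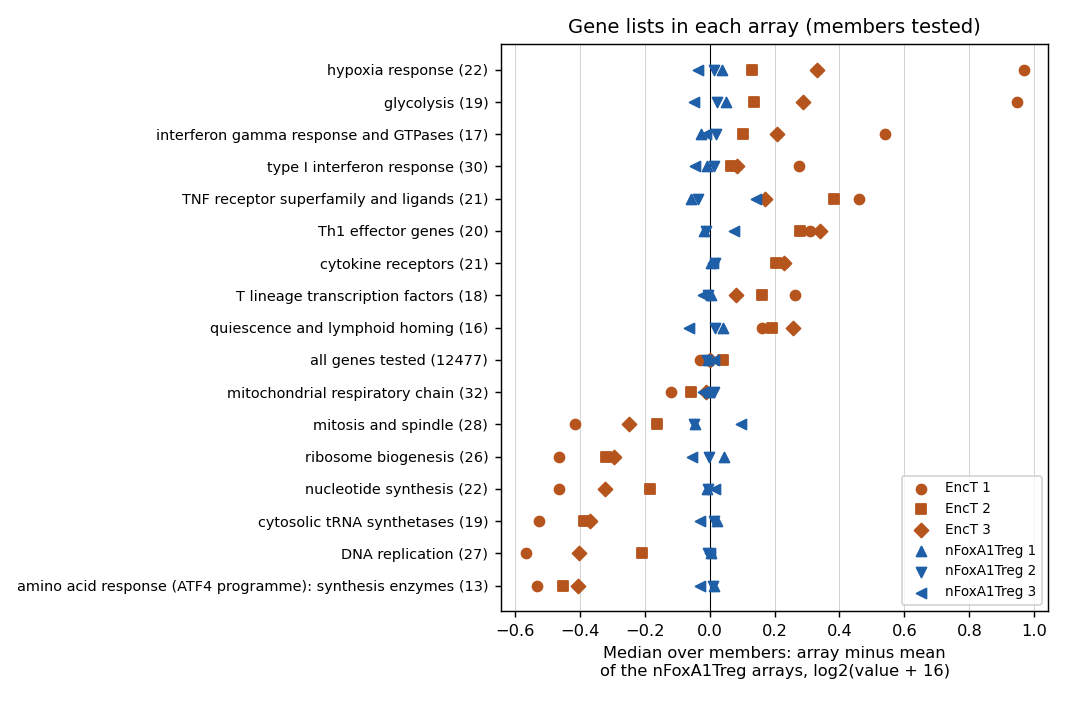
For each list, every array is placed by the median over the tested members of its value minus the mean of the nFoxA1Treg arrays, in log2(value + 16) units. For the synthesis enzymes the EncT arrays lie at -0.533, -0.452 and -0.404, close together, whereas for glycolysis they lie at 0.948, 0.136 and 0.287, with EncT replicate 1 far out.

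Immediate early genes, which switch on within minutes of a stimulus, held the largest rise of the comparison. Fos read 4.48, 5.16 and 4.58 in EncT and 7.21, 7.42 and 6.88 in nFoxA1Treg, a 5.39-fold rise (2.43 ± 0.19 SE, adjusted p = 8.9e-04). Its EncT values lie near the offset, so the fold depends on the scale. The partners of Fos in the AP-1 factor did not follow as a group. Jun changed by 0.47 ± 0.20 and Junb by 0.08 ± 0.13, neither called, and Jund fell by 0.39 (adjusted p = 0.0178) on 1 of its 2 probe sets. The mean of both changed by -0.048 (adjusted p = 0.657), and the Jund call was also lost without EncT replicate 3 or nFoxA1Treg replicate 1 or 2. Fosb was under the filter and was higher by 1.02 ± 0.16 in the fit without it. Of the Egr and Nr4a factors, Egr1 (0.46 ± 0.13, adjusted p = 0.0574), Egr2 (-0.34 ± 0.11), Egr3 (-0.04 ± 0.11) and Nr4a1 (0.03 ± 0.15) did not pass.

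Of 24 feedback inhibitors of cytokine and MAP kinase signalling, 3 rose (12.5% against 4.0% of all genes) and 4 fell (16.7% against 5.96%). The other 17 were not called, and the median was -0.103. The counts were 2 and 1 without nFoxA1Treg replicate 1 or 2. Dusp1, a phosphatase that switches off p38 and JNK kinases, had the smallest adjusted p among the rises. It read 7.79, 7.75 and 7.75 in EncT and 8.84, 8.86 and 8.84 in nFoxA1Treg (2.12-fold, adjusted p = 3.3e-04). Dusp5, an ERK phosphatase, rose by 0.33 ± 0.08, and Dusp6 showed 0.22 ± 0.09 and was not called. Rgs2, which shortens signals of G protein coupled receptors, rose 1.84-fold. Socs1, the inhibitor of JAK kinases that interferon induces, fell from 6.61, 6.88 and 6.52 to 5.76, 5.62 and 5.89 (1.88-fold, adjusted p = 0.00578), and Socs5, of the same family, fell 1.60-fold. Outside that list, Tnfaip3, which encodes the NF-kappaB inhibitor A20, rose from 9.27, 8.80 and 8.77 to 10.02, 10.03 and 10.35 (2.27-fold, adjusted p = 0.00409). Irs2, an adaptor below the insulin receptor, rose from 5.51, 5.63 and 5.45 to 6.61, 6.75 and 6.87 (2.32-fold). Ier3, an early stress gene, fell from 9.06, 9.0 and 9.41 to 7.04, 7.25 and 7.72 (3.53-fold, adjusted p = 0.00139). Of these, Dusp1, Tnfaip3, Rgs2, Irs2, Socs1 and Ier3 kept their calls in every alternative fit run.

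The Dusp1 window held the cAMP element TGACGTCA, which 3.38% of tested genes with a window held and none of the 9 AP-1 genes with a window did. The stretch is at chr17:26508590-26508633, a gene of the minus strand, and is written on that strand. The same stretch also holds the letters ACGTG described next.
Dusp1: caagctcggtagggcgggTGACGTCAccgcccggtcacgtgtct

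Glycolysis and hypoxia genes were lower in nFoxA1Treg, by an amount that rested largely on EncT replicate 1. The factor HIF-1 raises these genes when oxygen is low, and activated effector T cells also use them. Of 22 hypoxia genes 5 fell (22.7% against 5.96% of all genes), with a median of -0.458. Of 19 glycolysis genes 3 fell (15.8%) and 1 rose (5.26% against 4.0% of all genes), with a median of -0.413. Slc16a3, the lactate exporter, read 8.56, 7.74 and 7.93 in EncT and 7.05, 6.99 and 6.63 in nFoxA1Treg (2.28-fold lower, adjusted p = 0.0128). Aldoc, an aldolase, read 9.27, 7.06 and 7.88 against 6.47, 6.17 and 6.21 (3.45-fold lower, adjusted p = 0.0406). Pfkl, a phosphofructokinase, fell 1.71-fold. Slc16a1, the other lactate carrier of the list, rose from 8.11, 8.08 and 8.22 to 8.67, 8.59 and 8.59 (adjusted p = 0.00723), and no glycolysis gene was called higher without nFoxA1Treg replicate 1 or 2.

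Among the hypoxia genes, Bnip3, which acts in the removal of mitochondria, read 10.31, 8.68 and 9.39 in EncT and 8.35, 8.31 and 7.95 in nFoxA1Treg (2.39-fold lower, adjusted p = 0.0493). Egln3, an oxygen-sensing hydroxylase, went from 10.01, 9.56 and 9.63 to 9.06, 9.03 and 8.99 (1.63-fold lower, adjusted p = 0.00931). Pdk1, which keeps pyruvate out of the mitochondrion, fell 1.87-fold, and P4ha1, a collagen hydroxylase, 1.65-fold. Hif1a itself changed by 0.10 ± 0.05, Ldha by -0.08 ± 0.07, Pgk1 by -0.15 ± 0.07 and Vegfa by -0.07 ± 0.11, none of them called. The glucose transporters Slc2a1 (10.64, 9.46 and 9.80 against 9.33, 9.32 and 9.26) and Slc2a3 (-0.67 ± 0.25) and the hexokinase Hk2 (9.90, 8.94 and 9.23 against 9.04, 8.85 and 8.93) showed the same order of the EncT arrays and did not pass.

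EncT replicate 1 stood above the nFoxA1Treg mean by a median of 0.967 over the hypoxia genes and 0.948 over the glycolysis genes, against 0.130 and 0.136 in EncT replicate 2 and 0.332 and 0.287 in EncT replicate 3. Without EncT replicate 1 the medians were -0.204 and -0.182, with 7 and 4 genes called lower, and Aldoc and Bnip3 were lower by less, at -1.19 and -0.84. Without EncT replicate 2 they numbered 13 and 12. Without nFoxA1Treg replicate 1 they numbered 2 and 0, without replicate 2 they numbered 1 and 0, and without nFoxA1Treg replicate 3 or EncT replicate 3 they numbered 2 and 1. EncT replicate 1 also had the lowest sum of CD8 T and NK cell markers (3647, against 6824 and 7823 in the other EncT arrays and 6131 to 6402 in nFoxA1Treg) and the highest sum of neutrophil, mast cell and erythroid markers (830, against 215 and 148, and 116 to 149 in nFoxA1Treg). The part of these differences in the result was not tested.

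The letters ACGTG, the core of the hypoxia element, stood in 77.8% of 18 hypoxia genes with a window and 72.2% of 18 glycolysis genes, against 28.6% of tested genes. So short a motif is common, and 2 of the called genes show its setting. Slc16a3 is on the plus strand at chr11:120949022-120949062, where a further copy follows in small letters, and Egln3 on the minus strand at chr12:54204081-54204121, both written on the strand of the gene.
Slc16a3: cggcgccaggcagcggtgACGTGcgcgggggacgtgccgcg
Egln3: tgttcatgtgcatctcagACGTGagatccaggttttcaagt

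Energy genes outside glycolysis showed little change. Of 32 respiratory chain genes 1 rose (3.12%, near the 4.0% of all genes), and it was Cycs, cytochrome c (0.32 ± 0.06, adjusted p = 0.0165). Cox7c, a subunit of cytochrome c oxidase that is outside that list, rose from 6.46, 6.50 and 6.48 to 7.69, 7.60 and 7.60 (2.22-fold, adjusted p = 5.1e-04), with 2 of 2 probe sets called. Of 20 genes of the tricarboxylic acid cycle 1 fell (5%, near the 5.96% of all genes), Idh1 (-0.42 ± 0.10, adjusted p = 0.0328). In the cholesterol list the sterol exporters Abca1 (-0.48) and Abcg1 (-0.47) fell and no synthesis gene was called. These 3 lists had no call left without nFoxA1Treg replicate 1 or 2, and Cycs was the only call left without EncT replicate 3. Leaving out nFoxA1Treg replicate 3 left no call in the tricarboxylic acid cycle list, and 2 higher and 1 lower in the cholesterol list.

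Effector genes of Th1 cells were lower, with 8 of 20 called (40% against 5.96% of all genes) and a median of -0.184. Tbx21, the master factor of Th1 cells, went from 9.13, 9.02 and 9.14 to 8.80, 8.79 and 8.57 (1.30-fold lower, adjusted p = 0.024). Tnf read 7.71, 7.14 and 6.98 in EncT and 6.29, 6.17 and 6.48 in nFoxA1Treg (1.95-fold lower, adjusted p = 0.0165). Csf2, which encodes GM-CSF, a cytokine that T cells need to cause this disease, read 6.63, 6.09 and 5.86 against 4.57, 4.93 and 5.18 (2.45-fold lower, adjusted p = 0.0121). Fasl, the death ligand, fell from 8.32, 8.51 and 8.47 to 7.34, 7.41 and 7.79 (1.89-fold, adjusted p = 0.00566) and kept its call in every alternative fit run. Il18r1, a receptor chain for IL-18, fell from 10.83, 9.45 and 9.71 to 8.68, 8.79 and 8.81, a change of -1.24 that was -0.82 without EncT replicate 1. Ifng (8.17, 8.11 and 7.89 against 7.82, 7.86 and 8.11) and Cxcr3 (-0.12 ± 0.09) did not pass.

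The Th1 count fell to 1 without nFoxA1Treg replicate 1 or replicate 2, to 4 without replicate 3 and to 3 without EncT replicate 3. Of 14 cytotoxic genes 1 was called lower (7.14%, near the 5.96% of all genes), Gzmk (-0.43 ± 0.11) with a call that was lost whichever array was left out. Gzmb, granzyme B, spread from 9.05 to 10.93 within EncT, and its interval ran from -0.99 to 0.74.

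Among the genes of other T helper classes the Th2 cytokines Il13 and Il5 fell. Of 8 measured Th2 genes 3 were called lower (37.5% against 5.96% of all genes) and 3 changes were positive, with a median of -0.039. The 3 calls were Il13, Il5 and Stat6 (1.21-fold). Il13 read 6.23, 6.34 and 6.24 against 5.37, 5.08 and 5.85 (1.78-fold). Il5 read 6.31, 6.51 and 6.38 against 5.42, 5.45 and 6.03 (1.70-fold). Gata3, the master factor of the Th2 class, changed by -0.03 ± 0.11, and Il4 was under the filter. Of 10 measured Th17 genes 2 fell (20% against 5.96% of all genes), and neither of the 2 is a cytokine. In the Th17 list 5 changes were positive, with a median of -0.043. Il17a (0.04) and Il10 (0.46), given above, were not called. Maf, a transcription factor, went from 11.14, 10.63 and 10.81 to 10.24, 10.23 and 10.27 (1.53-fold lower, adjusted p = 0.0163) with 4 of 6 probe sets called. Stat3 fell by 0.35 on its brightest probe set, and 1 of its other probe sets was called higher. No Th2 gene was called without EncT replicate 3 or without nFoxA1Treg replicate 1 or 2, and no Th17 gene without nFoxA1Treg replicate 1 or 2; without nFoxA1Treg replicate 3 the Th17 count was 1.

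Receptors for cytokines and chemokines fell in larger number. Of 21 cytokine receptors 8 fell (38.1% against 5.96% of all genes), with a median of -0.209. Il7r, the receptor for the survival cytokine IL-7, went from 11.43, 11.34 and 11.38 to 10.48, 10.54 and 10.81 (1.71-fold lower, adjusted p = 0.00227). Csf2rb, the shared beta chain of the GM-CSF, IL-3 and IL-5 receptors, read 6.90, 5.97 and 5.36 in EncT and 4.14, 4.34 and 4.42 in nFoxA1Treg (3.42-fold lower, adjusted p = 0.016). Tgfbr2, Il10rb and Il12rb2 fell by 0.28, 0.30 and 0.35. Of 16 chemokine receptors and related guidance receptors 6 fell (37.5%). Cxcr6 fell by 0.32 (SE 0.05), from 12.21, 12.13 and 12.23 to 11.86, 11.94 and 11.82, and Ccr2 by 0.51. S1pr1, which leads T cells out of lymph nodes, went from 7.85, 7.79 and 7.64 to 7.01, 7.18 and 7.32 (1.51-fold lower, adjusted p = 0.0128). Gpr183 (1.61-fold) and Gpr18 (1.37-fold) were lower too. Ccr7, the lymph node homing receptor, was 0.33 ± 0.13 and was not called.

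The number of cytokine receptors that fell was 1 without nFoxA1Treg replicate 1 or 2, 2 without nFoxA1Treg replicate 3 or EncT replicate 3, and 5 without EncT replicate 1. For the chemokine receptors no call remained without nFoxA1Treg replicate 1 or 2, 1 remained without EncT replicate 3, and the count was 3 without nFoxA1Treg replicate 3 or EncT replicate 1. Il7r kept its call in every alternative fit run. Integrins were close in the groups: Itga4 (0.19 ± 0.22), the target of a treatment of multiple sclerosis, Itgb1 (-0.12 ± 0.08) and Itgal (-0.05 ± 0.07) were not called. Of 20 adhesion genes 1 fell (5%, near the 5.96% of all genes), Itgb3 (1.74-fold, adjusted p = 0.0162), and none without EncT replicate 3 or nFoxA1Treg replicate 1 or 2.

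Of 21 receptors and ligands of the TNF families 5 fell (23.8% against 5.96% of all genes). Tnfsf9, the ligand of 4-1BB, read 7.91, 7.32 and 7.55 in EncT and 6.34, 6.42 and 6.21 in nFoxA1Treg (2.41-fold lower, adjusted p = 0.00278). Tnfsf14 was 1.5-fold lower (adjusted p = 0.0362). Tnfrsf4 (-0.34 ± 0.10, adjusted p = 0.0613) and Tnfrsf18 (-0.09 ± 0.08), receptors that regulatory T cells express strongly, did not pass. The count was 2 without nFoxA1Treg replicate 1 or 2 and 3 without EncT replicate 3. Of 20 checkpoint receptors and ligands Ctla4 alone was called higher (5%, near the 4.0% of all genes) and 2 were called lower (10% against 5.96%). Vsir, which encodes VISTA, was among those 2 (8.71, 8.73 and 8.76 against 8.34, 8.37 and 8.30, adjusted p = 0.00897). Lag3 changed by 0.02 ± 0.16. The number of checkpoint genes called lower was 4 without EncT replicate 2 and 1 without nFoxA1Treg replicate 1 or 2.

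Of 24 Treg-associated genes measured, Ctla4 rose (4.17%, near the 4.0% of all genes) and 4 fell (16.7% against 5.96%). Prdm1, which encodes Blimp-1, was 1.46-fold lower (9.19, 8.81 and 9.04 against 8.39, 8.46 and 8.56) and Ebi3, a subunit of IL-35 and IL-27, 1.48-fold lower (9.60, 9.01 and 9.18 against 8.56, 8.61 and 8.91, adjusted p = 0.0466). Ikzf2, which encodes Helios, did not pass (-0.51 ± 0.15). The number that fell was 2 without EncT replicate 1, and none fell without EncT replicate 3 or without nFoxA1Treg replicate 1 or 2. Of 18 factors of the T lineage 5 fell (27.8%). Zbtb7b, the factor that fixes the CD4 lineage, went from 7.32, 7.33 and 7.14 to 6.54, 6.57 and 6.48 (1.66-fold, adjusted p = 0.00383) on 1 of its 2 probe sets. Its change of -0.73 was -0.39 as the mean of both and -0.046 (adjusted p = 0.781, not called) with all 12 arrays in the fit. Bcl11b fell by 0.39 with 4 of 4 probe sets called, and Bcl6 by 0.57. Runx1 fell on its brightest probe set, with 2 of 6 called lower and 1 higher. That count was 2 without EncT replicate 1 or 3 or nFoxA1Treg replicate 1, 1 without nFoxA1Treg replicate 2, and 3 without nFoxA1Treg replicate 3.

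Of 17 genes that interferon gamma induces 3 fell (17.6% against 5.96% of all genes) and 14 were not called, with a median of -0.267: Irgm2, a GTPase of the defence against intracellular parasites, Irf1 and Socs1. Irgm2 read 8.81, 8.07 and 8.26 in EncT and 7.30, 7.29 and 7.06 in nFoxA1Treg (2.24-fold lower, adjusted p = 0.00887). Irf1, the transcription factor at the head of that response, read 10.30, 9.89 and 10.00 against 9.52, 9.47 and 9.49 (1.48-fold lower, adjusted p = 0.0128). Igtp (-0.41 ± 0.13) and Gbp2 (-0.37 ± 0.11) did not pass. EncT replicate 1 stood 0.541 above the nFoxA1Treg mean over this list, and EncT replicates 2 and 3 stood 0.104 and 0.209 above it. Without EncT replicate 2, 11 of the 17 were called lower, and without nFoxA1Treg replicate 1, 2 were called lower and 1 higher.

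Of 30 type I interferon genes 2 fell (6.67%, near the 5.96% of all genes), Irf9 (1.51-fold) and Parp14 (1.42-fold). Rsad2 (-0.21 ± 0.14), Irf7 (-0.23 ± 0.09) and Cxcl10 (0.58 ± 0.22) were not called, and Ifit1 and Ifit3 were under the filter. Without EncT replicate 2 the count was 8, and no gene was called without nFoxA1Treg replicate 1 or 2. The class I antigen genes H2-K1 (0.08 ± 0.05), Tap1 (0.07 ± 0.06) and Psmb9 (0.10 ± 0.05) were bright and were not called. The interferon element (GAAA, 2 free bases, GAAA) stood in 9 of 21 type I genes with a window, against 3.61% of tested genes.

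Genes of cell death and stress were called in both directions. Of 20 genes of the BCL2 family and apoptosis 2 fell (10% against 5.96% of all genes) and 18 were not called, with a median of -0.094. Cflar, which blocks caspase-8, fell by 0.52 (SE 0.07). Bbc3, which encodes the pro-death protein PUMA, was 1.75-fold lower (7.71, 7.24 and 7.15 against 6.33, 6.61 and 6.73). Of 15 p53 targets 4 fell (26.7% against 5.96% of all genes), among them Sesn1 (1.56-fold) and Trp53inp1 (1.55-fold). Aen rose by 0.51 (SE 0.10) and was the only rise of that list (6.67% against 4.0% of all genes). The p53 targets that fell numbered 2 without nFoxA1Treg replicate 1 or 2, and Aen lost its call without EncT replicate 3 or any 1 nFoxA1Treg array. The apoptosis count was 1 without nFoxA1Treg replicate 1 or 2, and 4 without EncT replicate 2, with 2 called higher. Of 14 genes of oxidative stress and iron 1 rose and 1 fell (7.14% each, against 4.0% and 5.96% of all genes). Txn1, thioredoxin, rose by 0.23 (SE 0.05, adjusted p = 0.0332) and lost its call without EncT replicate 1 or any 1 nFoxA1Treg array. Nfe2l2, the oxidative stress factor NRF2, fell from 7.39, 7.01 and 7.07 to 6.48, 6.40 and 6.26 (1.71-fold, adjusted p = 0.00929) and lost its call without nFoxA1Treg replicate 2. Outside these lists, Pim2, a survival kinase, went from 7.61, 7.47 and 7.68 to 6.67, 6.80 and 6.72 (1.81-fold, adjusted p = 0.00159). Neat1, a long nuclear RNA that forms paraspeckles, was among the largest falls. It read 10.45, 9.49 and 9.98 in EncT and 8.01, 8.04 and 7.94 in nFoxA1Treg (3.93-fold, adjusted p = 0.00156). Lpar6, a lysophosphatidic acid receptor, went from 9.86, 9.05 and 9.17 to 7.91, 7.95 and 7.91 (2.71-fold).

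Several of the 15 largest falls were transcripts of antigen-presenting cells. The MHC class II genes present antigen on dendritic cells, macrophages and B cells, and mouse T cells make little of them. Cd74, the invariant chain, read 8.22, 8.38 and 8.09 in EncT and 5.73, 6.18 and 7.12 in nFoxA1Treg (3.70-fold lower, adjusted p = 0.00959). H2-Aa read 6.29, 6.76 and 6.33 against 4.0, 4.47 and 5.54 (3.45-fold lower, adjusted p = 0.0174), and H2-Ab1 6.0, 6.29 and 6.04 against 4.42, 4.16 and 5.04. The dendritic cell chemokine Ccl22 read 6.97, 7.53 and 7.39 against 4.67, 4.75 and 6.16 (4.28-fold lower, adjusted p = 0.0128). In all 4 genes nFoxA1Treg replicate 3 was the highest of its group and lay below every EncT array. Of 17 dendritic cell and class II markers on the array 11 passed the filter, with a median of -1.04. Of these 11, 6 were called lower (54.5% against 5.96% of all genes). Without nFoxA1Treg replicate 1 the count was 2, without replicate 2 it was 1, and without EncT replicate 3 it was 3. The filter took the mean over both groups, so markers dim in nFoxA1Treg, such as H2-Ab1, passed it through their EncT values. The counts and the median of this list are therefore not independent of the filter.

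Of 20 macrophage markers on the array 9 passed the filter, with a median of -0.330. Of these 9, 2 were called lower (22.2% against 5.96% of all genes) and 7 were not called. The count was 1 of 8 tested without EncT replicate 1, 4 of 12 without nFoxA1Treg replicate 1 or 2 and 6 of 12 without replicate 3. Each of these fits filtered anew on the mean over its own arrays. Markers bright only in EncT can therefore enter when an nFoxA1Treg array is left out, and these counts cannot be set against the main one. Clec7a, the fungal receptor Dectin-1, read 6.45, 7.24 and 6.60 in EncT and 4.68, 4.47 and 4.45 in nFoxA1Treg (4.69-fold lower, adjusted p = 8.9e-04). Lyz1, a lysozyme gene, read 6.79, 6.08 and 5.76 against 4.46, 4.48 and 4.30. Mmp12, the macrophage elastase and no member of the list, was among the 15 largest falls (5.89, 6.09 and 6.02 against 4.0, 4.43 and 4.01). Lyz2, under the filter, had deposited linear values of 64.4, 33.2 and 25.1 in EncT and 2.60, 1.17 and 4.56 in nFoxA1Treg. Csf1r, the receptor that defines the lineage, overlapped on its brightest probe set (5.82, 6.11 and 5.87 against 5.89, 5.26 and 5.86, not called). Its other probe sets, under the filter, were lower in nFoxA1Treg without overlap. The brighter of these had deposited linear values of 26.1, 19.4 and 22.7 in EncT and 1.94, 14.8 and 7.71 in nFoxA1Treg. Cybb (-1.38) and Fcgr3 (-0.96), also under the filter, were called lower in the fit without it. Of the 9 markers that passed the filter, 1 had a positive change. The filter took the mean over both groups, so Clec7a and Lyz1, dim in nFoxA1Treg, passed it through their EncT values. The signs and calls of the members that passed are therefore not independent of the filter. Over the 20 macrophage markers the summed linear value was 2179 to 3414 in EncT and 1387 to 2423 in nFoxA1Treg, where replicate 3 was the highest (2423) and overlapped the lowest EncT array. Over the 17 dendritic cell markers the sums were 1297 to 1609 and 782 to 1151. The part of such cells in the falls of class II, chemokine and lysozyme genes was not tested.

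**Figure D5:**
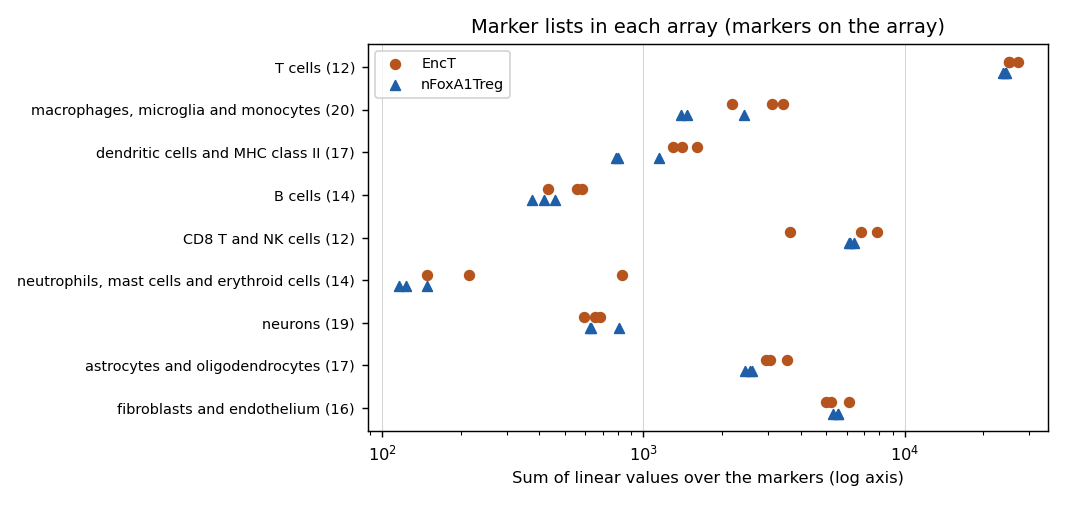
The sum of linear values over each marker list, 1 point per array, with EncT as circles and nFoxA1Treg as triangles and the number of markers on the array in brackets; the x axis is logarithmic. T cell markers sum to over 2.38e+04 on every array, and the dendritic cell and class II list lies at 1297 to 1609 in EncT and 782 to 1151 in nFoxA1Treg.

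The lists of other cells gave the following levels. B cell markers summed to 431 to 581 in EncT and 376 to 459 in nFoxA1Treg, with Ms4a1 and Cd79b under the filter, while Igkv8-30, an immunoglobulin kappa gene, was among the largest falls (6.09, 6.36 and 6.16 against 4.16, 4.50 and 5.32, adjusted p = 0.0121). Neuron markers summed to 592 to 680 and 626 to 807, and the neuronal gene Snap25 was under a linear value of 16 on all 6 arrays. Astrocyte and oligodendrocyte markers summed to 2940 to 3554 in EncT and 2454 to 2612 in nFoxA1Treg, a list that includes Aldoc and Cnp, both of which fell, neither of them called without EncT replicate 3 or any 1 nFoxA1Treg array. The NK cell gene Ncr1 and the neutrophil gene S100a8 were under 16 on all arrays. Klrd1, a receptor of NK cells and some T cells, fell from 9.18, 8.57 and 8.95 to 8.03, 7.94 and 8.16 (1.81-fold, adjusted p = 0.0121).

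Hbb-b2, a beta-globin gene of red blood cells, was the largest fall and had the smallest adjusted p among them. It read 9.0, 9.23 and 9.81 in EncT and 6.19, 6.42 and 6.26 in nFoxA1Treg (8.32-fold lower, adjusted p = 3.3e-04) on a probe set whose suffix marks probes shared with related sequences, so other beta-globin genes may contribute. Its other probe set had deposited linear values of 28.04, 34.7 and 48.2 against 5.14, 6.02 and 13.2 and was called as well. The alpha-globin gene Hba-a1 did not differ in that way on the 1 probe set used for it (5.58, 5.54 and 5.59 against 5.74, 5.63 and 5.68, change 0.11 ± 0.09). That probe set was dim, with deposited linear values of 30.4 to 37.5 on the 6 arrays. Probe sets that map to several genes were not used, so any shared alpha-globin probe set lies outside this comparison. Whether red cells took part was not tested.

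Against the 3 arrays of Treg, cells labelled CD4+ and TGF-beta+, limma called 0 of 12352 genes (0%), with 794 at an unadjusted p under 0.05, and eBayes without the trend called 0 as well. These genes had first passed the filter on the EncT and nFoxA1Treg arrays, so genes bright only in Treg were not tested. This comparison shares the nFoxA1Treg arrays with the one above, so only the levels are set side by side. Asns was 9.46, 9.49 and 9.56 in Treg, Slc7a5 8.32, 8.44 and 8.48, Ctla4 10.63, 10.69 and 10.65 and Fos 7.25, 6.95 and 7.03, and the nFoxA1Treg minus Treg changes were 0.14 ± 0.05, 0.24 ± 0.06, 0.19 ± 0.05 and 0.07 ± 0.13. Cd74 was 7.49, 7.16 and 7.12 in Treg (-0.93 ± 0.27) and Ccl22 6.93, 6.29 and 6.41 (-1.34 ± 0.33), neither of them called. Neat1 had the smallest adjusted p of these genes (-0.36 ± 0.05, adjusted p = 0.626). A missed threshold does not show that the groups are alike. Ttr, transthyretin, lay under the filter on the EncT and nFoxA1Treg arrays and was therefore outside that test. The deposited linear values of its brightest probe set were 231, 361 and 271 in Treg, 4.81, 8.55 and 7.83 in nFoxA1Treg and 5.75, 4.43 and 7.36 in EncT. With the EncT arrays in the fit 1 gene was called. That fit also filtered and chose probe sets anew over all its arrays, so its genes differ from those tested above.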

How the data were processed

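Total RNA was measured on 12 arrays, per the labels' protocols extracted with Trizol, cleaned with DNase and labelled with biotin. The deposited table holds log2 values per probe set with no offset, read from the values; the submitters' processing notes name PLIER (its version and any normalization between arrays: not given in the sources used here). Depth has no meaning for arrays: 3 arrays per group limit the precision. Of 45037 probe sets, 34945 had 1 gene symbol in the array annotation, 932 several and 9160 none; 34741 matched RefSeq by Entrez identifier and 0 symbols changed.

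Linear values plus 16 were log2 transformed and quantile normalized over the 6 arrays. The brightest 60% of probe sets, by mean over these arrays, were kept (log2 level 5.045, linear value 17), and each gene took its brightest probe set with 1 symbol. Of 5661 genes with several kept probe sets, 23 were called both ways. limma 3.58.1 in R 4.3.3 fitted 1 mean per group (4 residual degrees of freedom), with eBayes and an intensity trend, two-sided, Benjamini-Hochberg adjusted over all genes tested. Errors are standard errors of a change and intervals are 95%. Treg arrays were compared by the same fit on 6 arrays, on those probe sets of the main comparison that were also among the brightest 60% over these 6 (12352 genes).

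Named genes were 12 fixed genes, the 15 largest rises and falls among called genes without overlap, and in each list the key members, the 4 called members with the smallest adjusted p and up to 3 called in the rarer direction. Genes given for their promoter match, and all called members of a small list, are named outside that rule, after their values were seen. The comparison, the lists and the rule were chosen with earlier results of these data known. Promoter sequences are RefSeq's (GRCm38.p6). The result for 1 of the motifs searched is not reported here. On simulated data with 200 of 12477 genes changed, the fit recovered 53.7% of changes of 0.5, 92.5% of 1 and 98.5% of 2 on the log2 scale, and 4.12% of its calls were false. The simulated noise was independent between genes and between arrays. On the real arrays whole lists shifted together in single arrays, so these rates need not hold for them.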

Additional observations from a re-analysis of the deposited data

How the results depend on the processing

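Of 3019 values of called named genes under the alternatives, 2576 kept their sign and their call, 438 lost the call with the same sign and 5 changed sign. Of 1794 values of named genes not called, 1613 kept their sign and stayed uncalled, 89 changed sign and stayed uncalled and 92 gained a call. The calls (1243, of which 499 higher and 744 lower) stayed within 1.5 times under another offset, normalization, filter, probe set rule, eBayes without trend (887) and robust eBayes (1345). They rose to 4521 (2010 higher, 2511 lower) with array weights, to 2289 (1011 and 1278) with the Treg arrays in the fit and to 2637 (1137 and 1500) with all 12 arrays. Deviations of same-numbered arrays from their group means had correlations of -0.011, -0.21 and -0.25. The deviations of the 3 arrays of a group cancel out, so these correlations cannot tell whether the numbers pair the arrays. The replicate block gave 632 calls (234 and 398). Leaving out 1 array gave 125 to 2159 calls, 33 to 1011 higher and 92 to 1148 lower. The cause of these shifts was not tested, beyond the fewer samples of each such fit. Fem1c, 0.85 with all arrays, ranged from -0.65 to 0.92 when 1 array was left out; without an nFoxA1Treg array another probe set was its brightest (-0.65 to -0.54). Stat3 was 0.092 as the mean of its probe sets, and Nfkb2 -0.0098 without the probe sets that share sequence with other genes. Signal near the offset limits Foxa1, Foxp3, Mmp12, Lyz1, Csf2rb and Fos: their folds depend on the offset.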
